A study of Homo sapiens with 8 samples.

Results

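The genes described here are 9 enzymes of serine, folate and proline metabolism: PHGDH, PSAT1 and PSPH of serine synthesis, SHMT1, SHMT2, MTHFD1, MTHFD1L and MTHFD2 of the folate cycle, and PYCR1 of proline synthesis. They were taken from a list of names and matched by symbol to the Ensembl identifiers of the count files, and all 9 were found among the 58051 genes. RNA was sequenced in 8 samples of MDA231 (MDA-MB-231) cells, a breast cancer line. The 2 parental samples came from unmodified cells. The 3 SDHBKO samples came from cells in which SDHB, the iron-sulfur subunit of respiratory complex II, had been disrupted with a TALEN nuclease under hygromycin selection. The 3 SDHBKO SDHAlow samples came from SDHBKO cells that had also received an shRNA against SDHA, the catalytic subunit, under puromycin selection. All cells were untreated and were harvested from full medium before reaching confluence. The labels do not give whether the SDHBKO samples came from 1 clone or several, and no empty-vector sample is among the 8, so loss of a complex II subunit cannot be told apart from the history of a subline. The samples are numbered as biological replicates with no word on separate cultures, so p-values measure the spread between these samples, which may be in part technical.

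Serine is made from the glycolytic intermediate 3-phosphoglycerate by PHGDH, PSAT1 and PSPH in that order. Serine hydroxymethyltransferases, SHMT1 in the cytosol and SHMT2 in mitochondria, then pass a carbon unit from serine to folate, and the MTHFD enzymes carry this unit between its oxidation states for the synthesis of purines and thymidylate. MDA-MB-231 cells are known for low PHGDH expression and dependence on external serine, and cells with a disabled respiratory chain are known to alter mitochondrial folate and proline genes through the transcription factor ATF4.

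Libraries were primed at poly(A) tails, so that reads stem from transcript ends, and each sample had between 773042 and 1427141 reads on genes. Levels are given as CPM, the share of a sample's reads on genes in parts per 1000000 after TMM scaling. Before that scaling, 3 counts corresponded to between 2.102 and 3.881 CPM. Of all genes, 7550 had a mean normalized count above 5 and were tested with edgeR's quasi-likelihood test, in which a gene was called at a Benjamini-Hochberg adjusted p below 0.1. Over 5 residual degrees of freedom, the biological coefficient of variation was 21.5%. Reads mapping to several places made up 14.45% to 16.07% of SDHBKO libraries and 9.72% to 12.28% of the others. The counts of SDHA were 64 and 69 in parental, 108, 121 and 140 in SDHBKO, and 7, 17 and 16 in SDHBKO SDHAlow samples, so the knockdown was seen in every library labelled with it. SDHB had 0 to 4 counts in every sample, and reads at its 3' end lie outside the TALEN target, so they do not check the knockout. All 7 basal and mesenchymal markers listed for the line (VIM, CD44, AXL, MSN, LGALS1, CAV1 and S100A4) were tested genes. Their summed level was 6665 to 7384 CPM in parental, 5894 to 6493 CPM in SDHBKO and 6377 to 6860 CPM in SDHBKO SDHAlow cells. Within the list, MSN was called higher in SDHBKO SDHAlow than in parental cells, by 0.84 on the log2 scale (adjusted p = 0.0905). Among 8 luminal markers the sum was 107 to 159 CPM over all samples, most of it from KRT19 (82.2 to 145.7 CPM) and GATA3 (8.80 to 21.9 CPM), while ESR1 and PGR had 0 counts and EPCAM had 1.

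PHGDH, which commits 3-phosphoglycerate to serine synthesis, was counted in parental cells alone. Its gene (ENSG00000092621) lies on chromosome 1 from 119648411 to 119744218 of GRCh38, on the plus strand. It had 12 and 10 counts in the parental samples and 0 counts in each of the 3 SDHBKO and 3 SDHBKO SDHAlow samples. The groups did not overlap, and both parental samples stood above all 6 of the sublines' samples. Pooled over the group, the parental level was 13.4 CPM, with an exact 95% Poisson interval of 8.40 to 20.3 that covers counting error only. The SDHBKO libraries held 0 counts of 2620982 reads, and 3 counts over the group would have been 1.16 CPM, which puts PHGDH at least 11.6-fold lower than the pooled parental level. The SDHBKO SDHAlow libraries held 0 of 3115760 reads, with a limit of 0.968 CPM, and PHGDH was at least 13.9-fold lower there. From the lower limit of the parental interval to the upper Poisson limits of the sublines (1.43 and 1.19 CPM), the ratios were 5.89 and 7.06. Fewer cells with PHGDH RNA and less of it per cell cannot be told apart in these bulk samples.

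PHGDH had a mean normalized count of 2.97, below the minimum of 5, and did not enter the main test. In the edgeR fit without this filter its adjusted p was 0.00248 for SDHBKO and 0.00377 for SDHBKO SDHAlow against parental cells, where 2.95% and 0.957% of 15883 genes were called. With edgeR's own filter, chosen after the data had been seen, the adjusted p values were 0.0221 and 0.0612. That filter keeps a gene with enough counts in as many samples as the smallest group holds. PHGDH passed it through the parental samples alone, so these values are no separate support. The calls depended on the parental samples: in the unfiltered fit the adjusted p was 0.213 and 0.521 without parental replicate 1, and 0.0673 and 0.102 without parental replicate 2. DESeq2 gave p values of 0.000661 and 0.000398 and left them unadjusted because of the low counts. Between the SDHBKO and SDHBKO SDHAlow samples no difference was detectable, since both were at 0, and 0.894% of genes were called in that fit.

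Only 1 of the 58051 genes, PHGDH, had 10 or more counts in both parental samples and 0 in all other samples, with limits set after its values had been seen. The 22 nearest protein-coding genes in the files, up to 12 places away on either side, did not share this pattern. Of these, 12 had no count in any sample and so could not have shown it, and 7 had a count in every sample. The nearest counted gene on one side, ZNF697, had 10 and 4 counts in parental, 10, 4 and 7 in SDHBKO and 7, 18 and 6 in SDHBKO SDHAlow samples. The nearest counted gene on the other side, NOTCH2, which encodes a receptor of the Notch pathway, had 32 and 15, 5, 19 and 15, and 5, 24 and 10 counts in the same order. The groups of ZNF697 overlapped. In CPM, NOTCH2 stood at 36.4 and 19.7 in parental, 6.78, 20.8 and 16.0 in SDHBKO and 5.96, 17.7 and 11.0 in SDHBKO SDHAlow samples, so that parental samples overlapped with SDHBKO samples and lay above the SDHBKO SDHAlow ones.

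**Figure D1:**
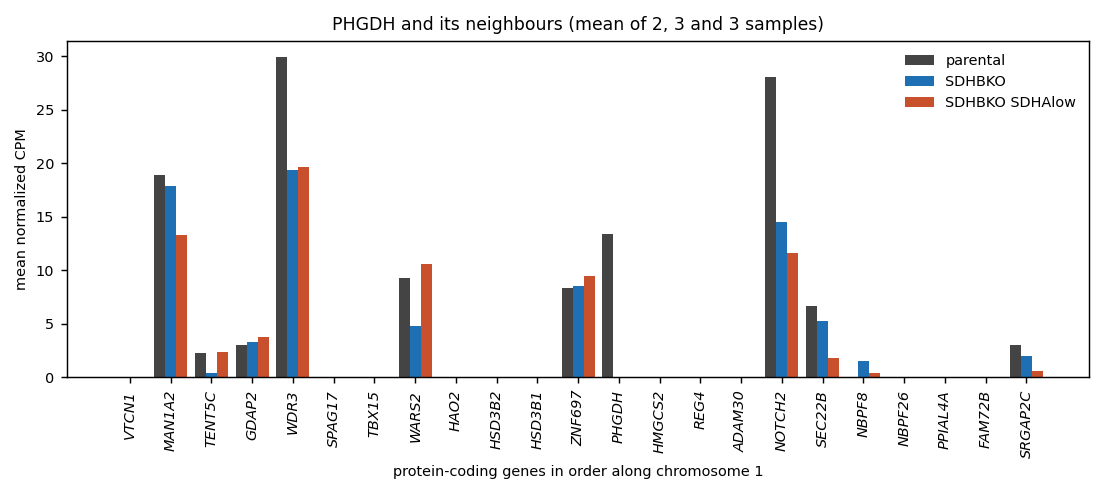
Mean level in normalized CPM (bars, 2 parental, 3 SDHBKO and 3 SDHBKO SDHAlow samples) of PHGDH and of 22 protein-coding genes in their order along chromosome 1. PHGDH has a bar in parental cells only, 13.4 CPM, while 7 of the genes around it were counted in every sample.

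PSAT1, the aminotransferase of the next step, was lower in SDHBKO than in parental cells. Its gene (ENSG00000135069) lies on chromosome 9 from 78297125 to 78330093, plus strand. The level was 83.1 and 52.5 CPM in parental cells, 12.2, 29.6 and 33.1 CPM in SDHBKO cells, and 46.5, 37.7 and 35.2 CPM in SDHBKO SDHAlow cells. No 2 groups overlapped, with SDHBKO samples lowest, SDHBKO SDHAlow samples between and parental samples highest. The means were 67.8 ± 21.7 CPM (SD, n = 2), 24.97 ± 11.2 CPM (n = 3) and 39.8 ± 5.94 CPM (n = 3), respectively. PSAT1 fell by 1.42 (SE 0.36) on the log2 scale in SDHBKO against parental cells, 2.68-fold, with a 95% interval from -2.17 to -0.67 and an adjusted p of 0.0395 by edgeR. From SDHBKO to SDHBKO SDHAlow cells the log2 difference was 0.64 (SE 0.34) with an adjusted p of 0.467, and from parental to SDHBKO SDHAlow cells it was -0.78 (SE 0.35) with an adjusted p of 0.357. The interval of the last difference, from -1.50 to -0.06, did not include 0 (unadjusted p = 0.0342), but neither difference passed the adjusted threshold.

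The PSAT1 call depended on single libraries, though its direction did not. Without parental replicate 1, the highest sample, the log2 difference was -1.04 and the adjusted p 0.542, and without SDHBKO replicate 1, the lowest, they were -1.12 and 0.153. Without parental replicate 2 they were -1.71 and 0.102. PSAT1 also has an AT-rich transcript end: 31.7% of its last 300 bases were G or C, against a median of 43.3% over the tested genes. The log2 differences of SDHBKO against parental cells rose with this GC content across 7539 genes (Spearman's rho 0.134, a description). With the trend removed, PSAT1 stood at -1.23 with an adjusted p of 0.0543.

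The promoters of PHGDH and PSAT1 are shown because these 2 neighbouring steps were both lower in SDHBKO cells, and that of MTHFD1L because it alone among the 6 genes with an entry (PHGDH, PSAT1, SHMT1, MTHFD1, MTHFD1L and MTHFD2) held both motifs searched. The sequences are from RefSeq (GRCh38.p14) and run 5′ to 3′ from 250 bases before to 50 bases after a transcript start, at chr1:119711684-119711983, chr9:78296875-78297174 and chr6:150866236-150866535, all on the plus strand. Capitals mark matches on either strand to TGATGNAA, the core bound by ATF4 with a C/EBP partner, or CACGTG, the E-box bound by MYC and related factors.
PHGDH: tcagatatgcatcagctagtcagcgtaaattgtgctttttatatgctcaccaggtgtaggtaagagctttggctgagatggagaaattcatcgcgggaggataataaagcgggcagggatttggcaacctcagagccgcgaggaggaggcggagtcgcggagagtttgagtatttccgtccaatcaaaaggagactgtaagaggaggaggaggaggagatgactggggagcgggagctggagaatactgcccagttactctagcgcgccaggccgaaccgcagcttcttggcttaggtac
PSAT1: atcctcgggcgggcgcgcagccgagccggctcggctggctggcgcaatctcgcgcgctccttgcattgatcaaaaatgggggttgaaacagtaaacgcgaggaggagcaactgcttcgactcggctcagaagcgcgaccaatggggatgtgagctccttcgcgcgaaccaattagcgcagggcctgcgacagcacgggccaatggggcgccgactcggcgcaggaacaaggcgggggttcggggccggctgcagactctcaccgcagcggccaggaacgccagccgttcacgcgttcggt
MTHFD1L: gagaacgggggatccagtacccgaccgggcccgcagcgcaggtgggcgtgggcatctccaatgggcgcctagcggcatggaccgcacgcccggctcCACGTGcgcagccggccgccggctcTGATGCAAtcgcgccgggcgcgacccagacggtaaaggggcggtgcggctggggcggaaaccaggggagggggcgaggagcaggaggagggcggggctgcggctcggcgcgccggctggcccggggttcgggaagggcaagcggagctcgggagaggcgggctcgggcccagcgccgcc
Neither motif was found in the PHGDH or PSAT1 window. The MTHFD1L window held CACGTG and TGATGCAA starting 154 and 129 bases before the start, 2 overlapping MTHFD1L windows held the same letters and another, farther along the gene, held neither, while MTHFD1 held CACGTG 15 bases before its start. TGATGNAA was present in 3.62% and CACGTG in 7.26% of 35116 promoters of this length. A match is a run of letters and no evidence of binding.

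PSPH, the phosphatase that releases serine in the last step, did not pass the test in any comparison. Its gene (ENSG00000146733) lies on chromosome 7 from 56011051 to 56051604, minus strand. The level was 33.0 and 23.6 CPM in parental, 23.0, 37.3 and 42.7 CPM in SDHBKO and 22.7, 49.5 and 31.9 CPM in SDHBKO SDHAlow cells, and all groups overlapped. The log2 difference of SDHBKO against parental cells was 0.28 with a 95% interval from -0.55 to 1.11, so that a change as large as that of PSAT1 lay outside the interval. The pseudogene PSPHP1, a near copy, had 13 counts in all, and reads that mapped to both were left out with the multimapping reads.

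**Figure D2:**
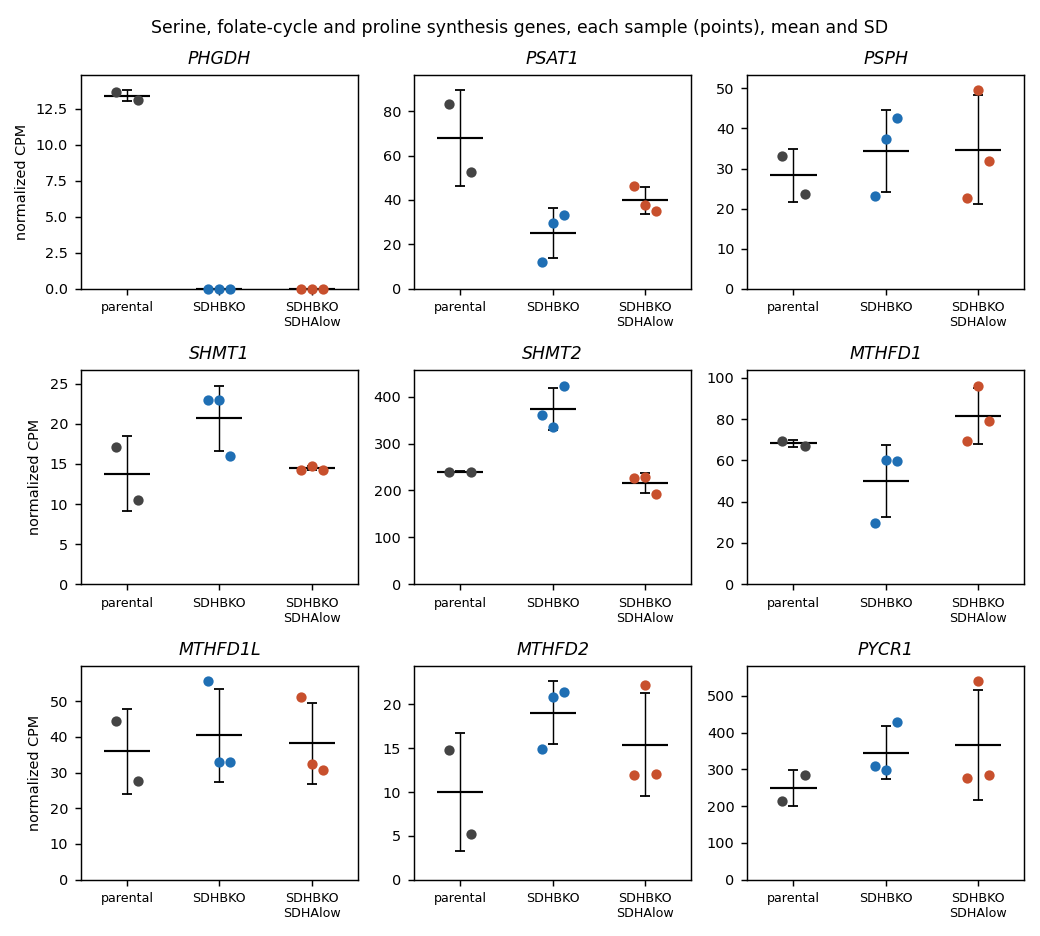
Level of each of the 9 genes in normalized CPM (linear axes from 0) in every sample (points), with the group mean (line) and SD (bar) for 2 parental, 3 SDHBKO and 3 SDHBKO SDHAlow samples. PHGDH is at 0 in all 6 samples of the sublines, PSAT1 is highest in parental cells, and SHMT2 is highest in the 3 SDHBKO samples.

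SHMT2, which splits serine to glycine in mitochondria and loads folate with the released carbon, was lower in SDHBKO SDHAlow than in SDHBKO cells. Its gene (ENSG00000182199) lies on chromosome 12 from 57229573 to 57234935, plus strand. The level was 240.2 and 238.8 CPM in parental cells, 361.8, 334.5 and 422.9 CPM in SDHBKO cells and 225.4, 229.1 and 191.4 CPM in SDHBKO SDHAlow cells. All 3 SDHBKO samples lay above the other 5, and the SDHBKO SDHAlow samples lay just below the parental ones. How many of all tested genes had SDHBKO samples highest in this way was not counted. The means were 239.5 ± 0.98 CPM (SD, n = 2), 373.0 ± 45.3 CPM (n = 3) and 215.3 ± 20.8 CPM (n = 3). SHMT2 fell by 0.79 (SE 0.19) on the log2 scale from SDHBKO to SDHBKO SDHAlow cells, 1.73-fold, with a 95% interval from -1.18 to -0.40 and an adjusted p of 0.0463 by edgeR. In SDHBKO against parental cells it was 0.64 (SE 0.21) with an adjusted p of 0.112 by edgeR and 0.0492 by DESeq2, on either side of the threshold. SDHBKO SDHAlow and parental cells did not differ beyond the spread between samples, at -0.16 (SE 0.21) and an adjusted p of 0.815.

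The log2 difference of SHMT2 between SDHBKO SDHAlow and SDHBKO cells kept its size, from -0.86 to -0.70, over all 17 alternative fits, and the adjusted p moved from 0.00641 to 0.255, with 8 of the fits below 0.1. It was above 0.1 without parental replicate 1 (0.109) or 2 (0.113), without SDHBKO SDHAlow replicate 1 (0.120) or 3 (0.255), and without SDHBKO replicate 1 (0.130) or 3 (0.236). It was 0.111 in a fit of the 2 groups alone. The transcript end of SHMT2 had 52.7% G or C. With the GC trend removed, which was -0.076 (Spearman's rho) over all genes in this comparison, the difference was -0.73 with an adjusted p of 0.0576.

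The other mitochondrial enzymes of the pathway did not pass the test. MTHFD2, which oxidizes the folate-bound carbon in mitochondria and is strongly expressed in many tumours, lies on chromosome 2 from 74186172 to 74217565, plus strand (ENSG00000065911). It had 14.8 and 5.25 CPM in parental, 14.9, 20.8 and 21.4 CPM in SDHBKO and 11.9, 22.2 and 12.1 CPM in SDHBKO SDHAlow cells. SDHBKO samples lay above the parental ones, by a narrow margin for the lowest of them. Parental replicate 2 held only 4 counts, and the log2 difference of 0.89 had an SE of 0.54 and an adjusted p of 0.409. Leaving out parental replicate 1 moved it to 1.84, and leaving out the other parental sample moved it to 0.36. MTHFD1L, which releases formate from mitochondria, lies on chromosome 6 from 150865679 to 151101887, plus strand (ENSG00000120254). Its level ranged from 27.6 to 55.6 CPM, with overlapping groups in all comparisons and log2 differences between -0.08 and 0.14. In SDHBKO against parental cells the 95% interval ran from -0.62 to 0.91.

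The cytosolic enzymes did not pass the test either. SHMT1, the cytosolic counterpart of SHMT2, lies on chromosome 17 from 18327860 to 18363563, minus strand (ENSG00000176974). It had 17.1 and 10.5 CPM in parental, 23.0, 23.0 and 16.0 CPM in SDHBKO and 14.3, 14.8 and 14.3 CPM in SDHBKO SDHAlow cells. All SDHBKO samples were above all SDHBKO SDHAlow samples, at a log2 difference of -0.50 (SE 0.40) and an adjusted p of 0.649 for 8 to 21 counts per sample. SMCR8 overlaps SHMT1 on the opposite strand and had 29 counts in all; the strand setting of the counting is not given in the sources used here, so reads of the 2 genes cannot be told apart. MTHFD1, which interconverts 3 forms of folate-bound carbon in the cytosol, lies on chromosome 14 from 64388031 to 64463457, plus strand (ENSG00000100714). Its level was 69.5 and 66.9 CPM in parental, 29.8, 60.3 and 59.8 CPM in SDHBKO and 69.2, 96.1 and 79.2 CPM in SDHBKO SDHAlow cells. Here SDHBKO samples were the lowest, the reverse of the order in SHMT2. The log2 difference of SDHBKO SDHAlow against SDHBKO cells was 0.70 (SE 0.27), with an unadjusted p of 0.0167 and an adjusted p of 0.283 by edgeR.

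PYCR1, which makes proline from pyrroline-5-carboxylate in mitochondria, did not pass the test. It lies on chromosome 17 from 81932384 to 81942412, minus strand (ENSG00000183010). Its level was 215.2 and 283.5 CPM in parental, 308.9, 298.3 and 429.3 CPM in SDHBKO and 276.7, 538.9 and 284.9 CPM in SDHBKO SDHAlow cells. SDHBKO samples lay above both parental samples, and SDHBKO SDHAlow replicate 2, the deepest library, stood apart from the other samples of its group. The log2 difference was 0.47 (SE 0.28, adjusted p = 0.395) for SDHBKO and 0.56 (SE 0.28, adjusted p = 0.420) for SDHBKO SDHAlow against parental cells. Against SDHBKO cells, SDHBKO SDHAlow cells stood at 0.09 with replicate 2 and at -0.32 without it.

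Over the 8 tested genes, edgeR called 1 in SDHBKO against parental cells (PSAT1, lower), where 5.54% of all tested genes were called, 3.14% higher and 2.4% lower. DESeq2, which called 394 of all genes there, called SHMT2 (higher). It left PSAT1 (unadjusted p = 0.00148), PSPH, SHMT1, MTHFD1L and MTHFD2 without an adjusted p. Of the 8, it could therefore call only SHMT2, MTHFD1 or PYCR1. In SDHBKO SDHAlow against SDHBKO cells edgeR called 1 (SHMT2, lower), where 1.51% of all genes were called, 0.318% higher and 1.19% lower. In SDHBKO SDHAlow against parental cells edgeR called 0 of the 8, where 0.914% of all genes were called, 0.225% higher and 0.689% lower. DESeq2 called 0 there, with no adjusted p for SHMT1 and MTHFD2. An unadjusted p below 0.05 by edgeR was found for 2, 2 and 1 of the 8 in the 3 comparisons, against 17.5%, 12.1% and 12.3% of all tested genes. The groups did not overlap in 5, 4 and 2 of the 8 genes, against 37.7%, 17.3% and 30.6% of all tested genes. The median log2 difference of the 8 was 0.37, -0.03 and 0.16 in the 3 comparisons, beside -0.000724, 0.0126 and 0.0173 over all genes. The 3 comparisons share samples in pairs, so their values are not independent. The genes did not move as a block: in SDHBKO against parental cells, 6 had positive and 2 negative log2 differences, from -1.42 for PSAT1 to 0.89 for MTHFD2.

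**Figure D3:**
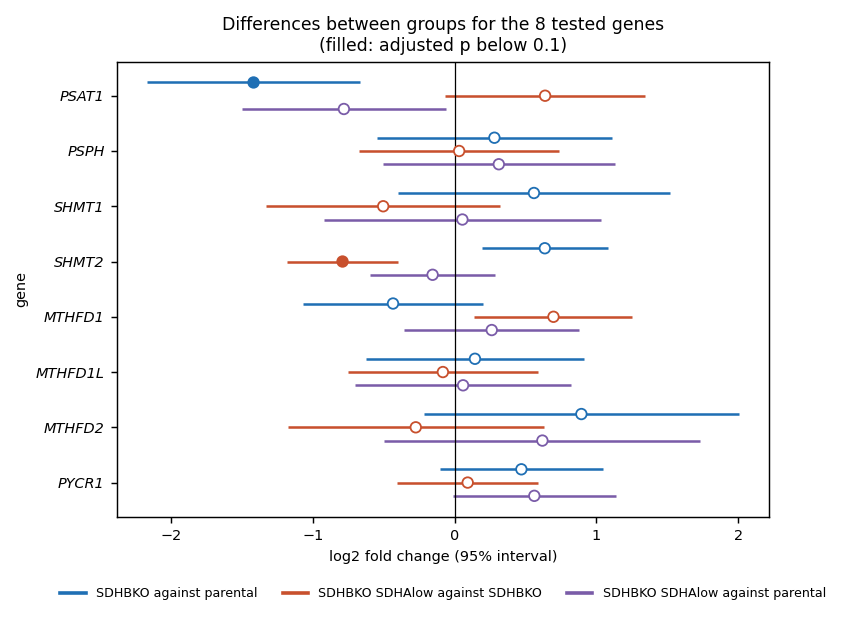
Log2 fold change (points) with its 95% interval (lines) for the 8 tested genes in the 3 comparisons between groups, with filled points at an adjusted p below 0.1. The filled points are PSAT1 at -1.42 in SDHBKO against parental cells and SHMT2 at -0.79 in SDHBKO SDHAlow against SDHBKO cells.

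Around these enzymes, 75 other genes in 7 lists were examined: other folate enzymes, glycine cleavage, the methionine cycle with transsulfuration, transport of serine and folate, proline metabolism, use of serine, and regulators with their stress-response targets. The 40 that were tested held 0 calls in SDHBKO against parental cells, 1 in SDHBKO SDHAlow against SDHBKO cells and 0 in SDHBKO SDHAlow against parental cells, while 6, 7 and 5 had an unadjusted p below 0.05, against 17.5%, 12.1% and 12.3% of all tested genes. DESeq2 called 1, 2 and 0 of them. Their median log2 differences were -0.11, 0.11 and 0.04. The other 35 had too few reads. GLDC, the decarboxylase of glycine cleavage, CBS, which opens transsulfuration, and ALDH1L2, a mitochondrial folate dehydrogenase, had 0 counts in all samples.

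The called gene was ATF4, the transcription factor of the integrated stress response that activates serine and folate genes. Its level was 157.1 and 196.8 CPM in parental, 311.6, 232.5 and 322.5 CPM in SDHBKO and 153.8, 186.3 and 161.7 CPM in SDHBKO SDHAlow cells. As with SHMT2, all 3 SDHBKO samples lay above the other 5. Among all tested genes, SDHBKO samples did not overlap with parental samples in 37.7% and with SDHBKO SDHAlow samples in 17.3%, in either direction. The share with SDHBKO samples above both other groups at once was not counted. PSAT1 went the other way, with SDHBKO samples lowest. Pearson's r of log2 CPM with ATF4 over the 8 samples, a description, was 0.93 for SHMT2 and -0.72 for PSAT1. By r, ATF4 ranked 20 among the tested genes for SHMT2 and 7111 for PSAT1. ATF4 fell by 0.78 (SE 0.20) on the log2 scale from SDHBKO to SDHBKO SDHAlow cells with an adjusted p of 0.0750 by edgeR. The call was lost, with 0 of the 40 genes called, without parental replicate 1 or 2, SDHBKO SDHAlow replicate 1 or 3, or SDHBKO replicate 1 or 3. In SDHBKO against parental cells ATF4 stood at 0.70 (SE 0.23) with an adjusted p of 0.103, and its RNA level is not a measure of its protein, which is known to be set mainly by translation.

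**Figure D4:**
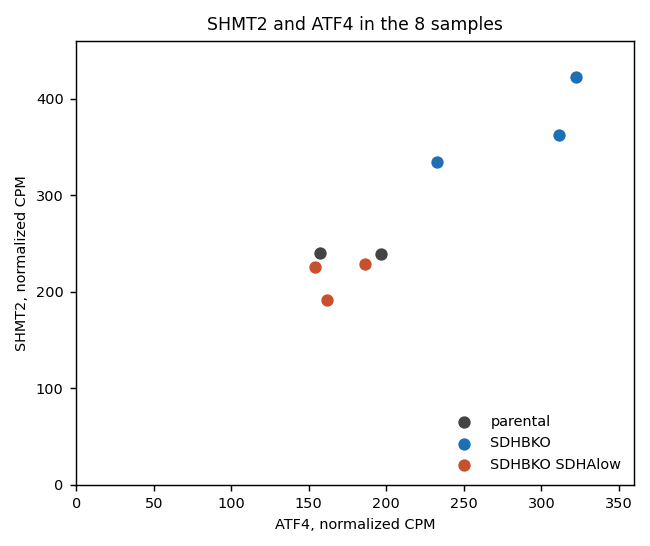
Level of SHMT2 against that of ATF4, both in normalized CPM on linear axes, in the 8 samples (1 point each, coloured by group). The 3 SDHBKO samples lie at 232.5 CPM or more of ATF4 and 334.5 CPM or more of SHMT2, and the 5 others at 196.8 and 240.2 CPM or less.

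The genes with the largest difference between SDHBKO and parental cells in their list were not called. In glycine cleavage and breakdown only GCAT was tested, at -0.22 (adjusted p = 0.765). MAT2A, which makes S-adenosylmethionine, stood at -0.67 (adjusted p = 0.395). SFXN1, the mitochondrial serine carrier, stood at -0.76 (adjusted p = 0.378), and PYCR3, the cytosolic relative of PYCR1, at -0.75 (adjusted p = 0.177). SERINC3, named as a serine incorporator, stood at -0.34 (adjusted p = 0.687). MYC, a transcription factor that activates growth and metabolic genes, stood at 1.70 (SE 1.00, adjusted p = 0.395). Its level was 2.28 and 0 CPM in parental and 4.07 to 4.39 CPM in SDHBKO cells, most of these near the level of 3 counts. In SDHBKO SDHAlow against parental cells MYC stood at 3.03 (SE 0.88, adjusted p = 0.147 by edgeR), at 8.80 to 11.9 CPM, and was not called. The study reports less cMYC protein in both sublines than in parental cells by western blot, the opposite direction in another measure.

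**Figure D5:**
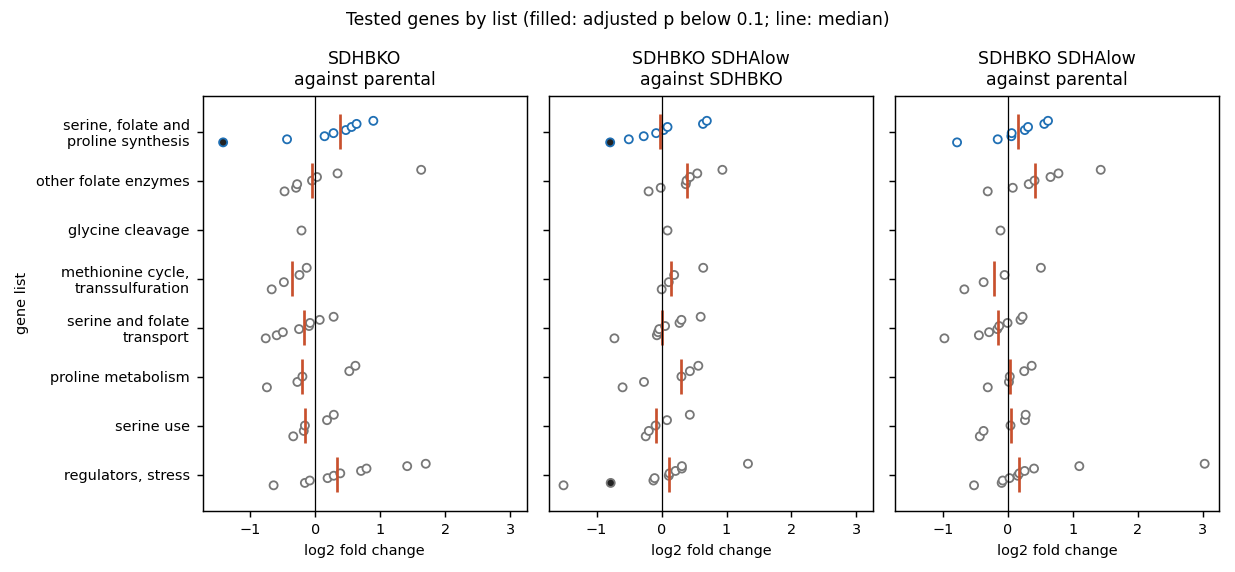
Log2 fold changes of the tested genes (points) in the 9-gene list and 7 other lists for the 3 comparisons, with the median of each list of more than 1 tested gene (vertical line) and filled points at an adjusted p below 0.1. The filled points are PSAT1, SHMT2 and ATF4, and the lists lie on both sides of 0.

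For the 2 called enzymes, the tested genes with the most similar pattern were found by Pearson's r of log2 CPM over the 8 samples, given as a description because the samples share groups and libraries. For PSAT1 these included EIF4G2 (0.963), a translation initiation factor, LPGAT1 (0.958), NIBAN1 (0.953) and C5orf15 (0.952). EIF4G2 had 513.5 and 452.7 CPM in parental, 233.0, 369.6 and 338.5 CPM in SDHBKO and 432.9, 433.2 and 394.9 CPM in SDHBKO SDHAlow cells. These 4 had transcript ends of low GC content, from 33.7% to 37.7%. For SHMT2 they were EPS8L2 (0.980), SLC25A11 (0.979), the mitochondrial carrier of oxoglutarate and malate, CYB5D2 (0.966), IFFO1 (0.965) and EIF4EBP1 (0.961), a repressor of translation initiation. SLC25A11 had 162.8 and 133.9 CPM in parental, 288.6, 228.1 and 304.3 CPM in SDHBKO and 118.1, 141.2 and 94.6 CPM in SDHBKO SDHAlow cells. Their transcript ends held 40.7% to 60.7% G or C, and the part of base composition in these likenesses was not tested.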

How the data were processed

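Raw counts per gene were deposited for each of the 8 samples. Per the labels and the methods of the study, the authors trimmed reads with Trimmomatic, removed ribosomal and mitochondrial reads, and aligned and counted them on GRCh38 with STAR 2.5.2b. The authors also deposited normalized counts, a signal divided by a size factor per sample, in which SDHBKO replicates 1 and 3 were exchanged relative to the raw counts; only raw counts were used here. Rows that name no gene (unmapped, multimapping, no feature, ambiguous) took 18.82% to 28.61% of reads and were left out.

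All 8 samples in 3 groups entered 1 fit in edgeR 4.0.16 (R 4.3.3), with TMM and genes above a mean normalized count of 5. P-values were adjusted by Benjamini-Hochberg over all tested genes within each comparison, and the threshold was 0.1. The scripts were tested on simulated data. DESeq2 1.42.0, other filters and normalization, a fit of 2 groups, a replicate block and each sample left out were alternatives. Among alternatives, the exchanged replicate numbers, edgeR's own filter and the GC correction (lowess of span 0.3 on the last 300 bases of the GENCODE 44 canonical transcript) were added after the data had been seen. Replicates differed by more than sampling noise (chi-squared per degree of freedom 2.08 to 10.2). The top of this range came from SDHBKO SDHAlow replicate 2, at 9.5 against replicate 1 and 10.2 against replicate 3. Replicates 1 and 3 of that group stood at 3.06. Samples with the same number in the raw counts did not deviate together, with correlations of deviations from group means between -0.27 and 0.093 over 7 pairs.

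The 9 genes and the lists were chosen with earlier results of these data known. The text names all 9, SDHA and SDHB, every called gene of the 7 other lists, the gene of largest change between SDHBKO and parental cells in each list, and the 5 genes most like each called enzyme. Some genes that this rule names are not reported here.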

Additional observations from a re-analysis of the deposited data

How the results depend on the processing

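PSAT1 between parental and SDHBKO cells and SHMT2 between SDHBKO and SDHBKO SDHAlow cells kept their direction in 17 alternative fits each, and PSAT1 was called in 12 of the 16 with an adjusted p and SHMT2 in 8. SHMT1 and MTHFD2, below 20 counts in most samples, had intervals too wide to show changes of the size of SHMT2. DESeq2 gave no adjusted p for 11 of the values of the 9 genes, and these were not counted as lost calls. The causes of the changes below were not tested, beyond the smaller number of samples where 1 was left out.

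Among all genes, the counts called in SDHBKO against parental, SDHBKO SDHAlow against SDHBKO and SDHBKO SDHAlow against parental cells (418, 114 and 69) were 777, 64 and 7 in fits of the 2 groups alone, and 171, 64 and 13 at an adjusted p below 0.05. The third was 152 without a filter and 42 above a mean of 20. Leaving out 1 library gave 0 to 833, 39 to 362 and 4 to 172. The first count was 0 and 46 without parental replicates 1 and 2, 77 and 148 without SDHBKO replicates 1 and 3, and 833 without SDHBKO SDHAlow replicate 2.

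Of the 9 genes, 2 were called in SDHBKO against parental cells without a filter, above a mean of 20, with 2 groups alone and with edgeR's own filter, and 0 to 2 with 1 library left out. In SDHBKO SDHAlow against SDHBKO cells 0 were called with 2 groups alone, and 0 to 1 with 1 library left out. In SDHBKO SDHAlow against parental cells 1, PHGDH, was called without a filter and with edgeR's own filter. In both comparisons with parental cells, PHGDH passed edgeR's own filter through its parental counts alone. Of the 75 other genes, DESeq2 called 1 and 2 in the first and second comparisons. In the first, 1 was called above a mean of 20, 2 with 2 groups alone, and 0 to 3 with 1 library left out. In the second, 0 were called with 2 groups alone and at 0.05, and 0 to 1 with 1 library left out, as in the third.

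The replicate numbers were shared between groups. With the numbers of the raw counts, same-numbered samples did not deviate together, and with those of the normalized counts this was not examined. With the raw numbers as a replicate block, 199, 59 and 12 of all genes were called. PSAT1 stayed called at an adjusted p of 0.0998, and 0 of the 9 and 0 of the 75 were called in SDHBKO SDHAlow against SDHBKO cells, with SHMT2 at 0.152. With the numbers of the normalized files as the block, 94, 49 and 8 of all genes were called, and 0 of the 9 and 0 of the 75 in the first and second comparisons, with PSAT1 at 0.131.

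Among the 9 genes, signs turned only for uncalled genes with small differences, and only with a library left out, where the log2 differences had the following ranges. In SDHBKO against parental cells MTHFD1L ran from -0.15 to 0.54, with negative values without parental replicate 2 or SDHBKO replicate 1. In SDHBKO SDHAlow against SDHBKO cells PSPH ran from -0.36 to 0.25, MTHFD1L from -0.34 to 0.20 and PYCR1 from -0.32 to 0.27. In SDHBKO SDHAlow against parental cells PSPH ran from -0.067 to 0.58, SHMT1 from -0.24 to 0.46 and MTHFD1L from -0.24 to 0.46. Of the other lists, signs were not followed with libraries left out, and the GC correction turned the sign of values of genes that included FPGS, MAT2A, MAT2B, SFXN3, SLC25A32 and SLC38A1, all uncalled and between -0.13 and 0.09 with and without it.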

Other observations

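Stress-response genes of the regulator list went different ways, and those given here were chosen after their values had been seen. DDIT3, a transcription factor downstream of ATF4, had 4.55 and 11.8 CPM in parental, 31.2, 16.4 and 18.2 CPM in SDHBKO and 5.96, 5.91 and 11.0 CPM in SDHBKO SDHAlow cells. SDHBKO samples thus lay above the other 5, an order that was not counted over all tested genes. The log2 difference of DDIT3 was 1.41 (SE 0.57, adjusted p = 0.191) in SDHBKO against parental cells and -1.51 (SE 0.49, adjusted p = 0.194) in SDHBKO SDHAlow against SDHBKO cells by edgeR. ASNS, the asparagine synthetase and a target of ATF4, stood higher in both sublines than in parental cells, at 0.79 (SE 0.37, adjusted p = 0.270) and 1.10 (SE 0.36, adjusted p = 0.199), neither of which was called. TRIB3, another target of ATF4, stood lower in both, at -0.64 (SE 0.34, adjusted p = 0.331) and -0.52 (SE 0.33, adjusted p = 0.553), with both parental samples above all others. CHAC1 and PPP1R15A, which are also induced in this response, stood at 0.28 and -0.09 in SDHBKO against parental cells, with overlapping groups.

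Genes counted on one side only, as PHGDH was, were few. With 5 or more counts in both parental samples and 0 in the other 6, the genes were PHGDH and SLC35A3, a Golgi nucleotide sugar transporter, with 5 and 5 counts. With up to 2 counts allowed in the others together, GSTM3, a glutathione transferase, joined them, with 11 and 5 counts in parental samples and 1 in all others. In the opposite direction HACL1, a peroxisomal lyase, had 0 counts in both parental samples and between 6 and 12 counts in each of the other 6, and at the looser limit TBC1D12, SMARCE1 and TBC1D22A-DT joined it, for 4 genes in all. These limits were set after the values of PHGDH had been seen.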
